A study of Mus musculus with 9 samples.

Results

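The odorant receptor genes linked to the major histocompatibility complex (MHC) were taken as the genes of the deposited table with symbols from Olfr90 to Olfr137, with or without the -ps suffix that marks a pseudogene in the mouse nomenclature. The rule found 47 genes, of 1408 Olfr genes and 55291 genes in all. All 47 lie on chromosome 17 of build GRCm38, between positions 37083871 and 38336643, a span of 1252.8 kb, with 25 on the plus strand and 22 on the minus strand. The measurements are RNA-seq of main olfactory epithelium from 9 mice aged 8 to 12 weeks, 3 of each genotype. The paper names C57/BL6 for the wild-type mice of its stained sections, but its sequencing methods name no strain. The Ms4a cluster knockout carries a CRISPR/Cas9 deletion of the Ms4a genes. The paper describes proteins of this membrane-spanning 4A family as chemoreceptors of necklace sensory neurons. It places a further member, MS4A1, in sensory neurons outside the necklace. The Ms4a6c knockout lacks a single gene of that family, deleted by homologous recombination. The wild-type mice are littermate controls, and the line they came from is not stated. Ms4a6c and its relatives lie on chromosome 19, apart from the receptors described here.

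Odorant receptors are G protein-coupled receptors in the cilia of olfactory sensory neurons. A mature neuron transcribes a single allele of a single receptor gene, so in bulk tissue the level of a receptor reflects both how many neurons chose it and how much RNA each of them holds, and fewer cells of a type and less RNA per cell cannot be told apart here. Receptor genes stand in clusters that grew by repeated duplication, and the protein is typically encoded by a single coding exon. The cluster next to the MHC sits beside non-classical MHC class I genes, an arrangement that many mammals share.

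In the annotation each of the 47 genes was listed as protein coding with a complete reading frame, including Olfr104-ps, Olfr105-ps and Olfr106-ps. In those 3 the annotated frame joins 2 coding exons, and in the other 44 it lies in 1. The coding sequences were 918 to 1161 bases long with a median of 942. Neighbours along the chromosome resembled each other most. The median identity of coding sequences was 82.2% between the 46 pairs of adjacent genes and 54.6% between the other 1035 pairs. Joining genes with at least 80% identity gave 8 subfamilies that held 36 of the 47 genes and left 11 genes alone. Of the 8 subfamilies, 4 were runs of neighbours, namely Olfr90 to Olfr93, Olfr101 to Olfr106-ps, Olfr133 to Olfr135, and the pair Olfr110 and Olfr111. The other 4 were split along the chromosome. Olfr97 to Olfr99 grouped with Olfr107 and Olfr108, Olfr112 to Olfr116 with Olfr126 to Olfr128, Olfr118 to Olfr122 with Olfr129, and Olfr117 with Olfr130. The receptor with the highest RNA level, Olfr124, stood alone.

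**Figure D1:**
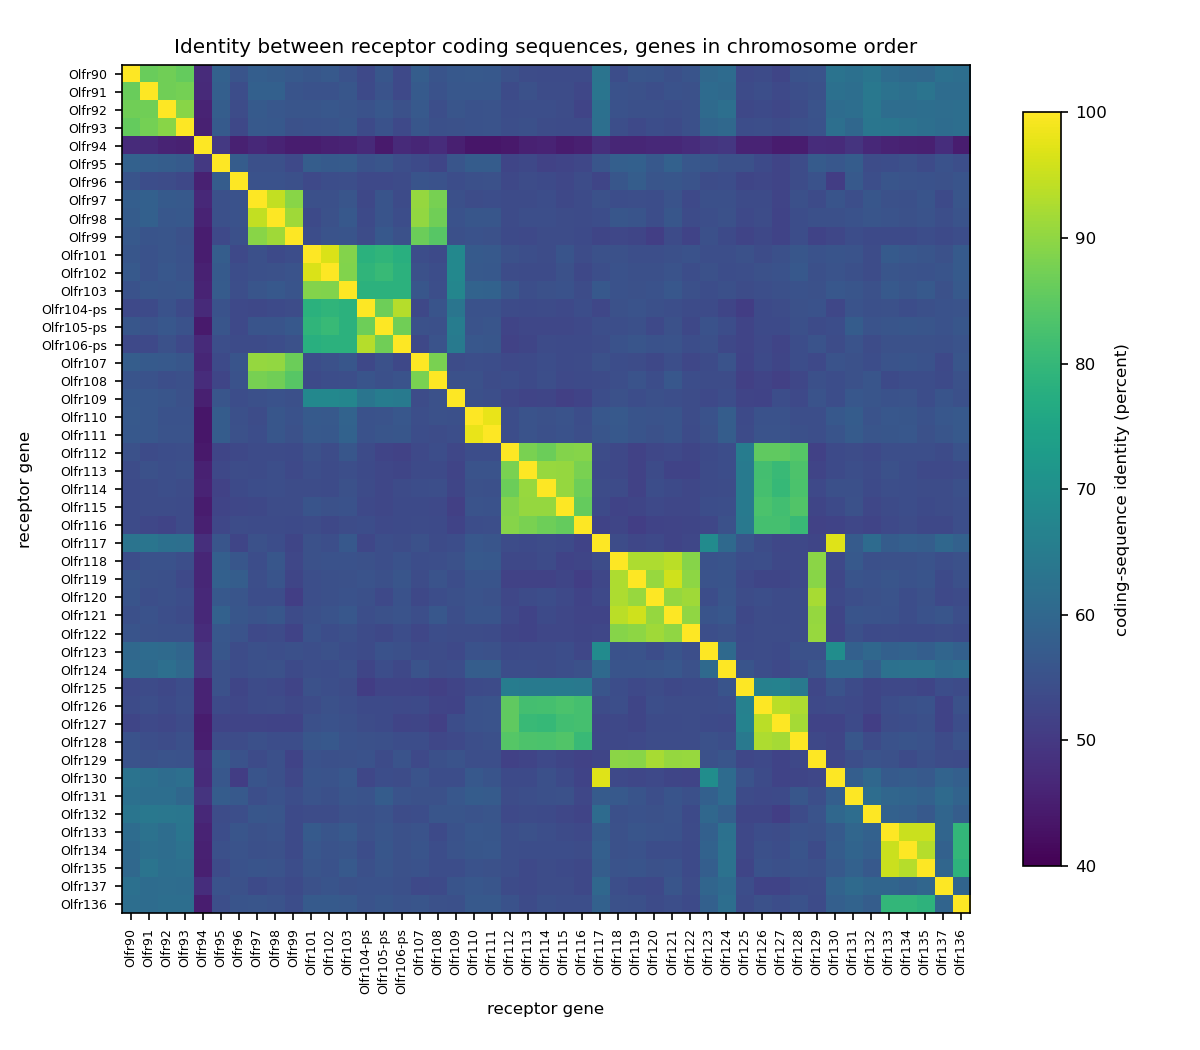
Percent identity of the coding sequences of the 47 receptor genes, with genes on both axes in their order along chromosome 17 and colour giving identity from 40 to 100%. Bright blocks on the diagonal are runs of similar neighbours, and bright patches away from it are similar genes that lie apart, such as Olfr117 and Olfr130 at 97.2%.

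The closest pairs are shown because their likeness limits how finely short reads can be assigned to one gene. Olfr110 and Olfr111 differed at 18 of 954 coding bases and their transcripts shared an identical run of 440 bases. The stretches below hold their densest differences, coding bases 817 to 876 of each gene on the plus strand, at chr17:37499469-37499528 and chr17:37530795-37530854 of GRCm38. Capitals mark bases that differ between the sequences of a set.
Olfr110: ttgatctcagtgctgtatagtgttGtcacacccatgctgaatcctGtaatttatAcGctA
Olfr111: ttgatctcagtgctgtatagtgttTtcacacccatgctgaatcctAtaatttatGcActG

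Olfr117, on the minus strand, and Olfr130, on the plus strand, differed at 27 of 954 coding bases although they are not neighbours. Coding bases 721 to 780 are shown for both, at chr17:37659552-37659611 and chr17:38067893-38067952.
Olfr117: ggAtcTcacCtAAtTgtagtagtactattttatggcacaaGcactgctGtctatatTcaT
Olfr130: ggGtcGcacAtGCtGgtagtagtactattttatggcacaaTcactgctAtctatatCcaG

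Olfr126, Olfr127 and Olfr128, all on the plus strand, are close relatives, and are shown because Olfr126 and Olfr127 were both low in one mouse, as described further on. They differed at 39 of the first 600 coding bases, and coding bases 151 to 210 are given, at chr17:37850744-37850803, chr17:37903698-37903757 and chr17:37923718-37923777.
Olfr126: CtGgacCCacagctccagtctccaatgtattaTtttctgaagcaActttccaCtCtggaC
Olfr127: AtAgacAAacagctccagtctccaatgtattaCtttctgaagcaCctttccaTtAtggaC
Olfr128: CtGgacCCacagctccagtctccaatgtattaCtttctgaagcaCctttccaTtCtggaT

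RSEM divides a read that matches several genes between them, which leaves fractional expected counts. A value more than 0.005 from a whole number was found in at least 1 mouse for 24 of the 47 genes. Olfr110 and Olfr111 had fractional values in all 9 mice, and Olfr115 and Olfr116, whose transcripts shared an identical run of 304 bases and whose annotated spans overlap, in 8 of 9. Levels of these genes are therefore uncertain within their pair.

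The 9 libraries held 13954591 to 21987174 expected counts. Ms4a6c had 54, 90.3 and 81.5 expected counts in the wild-type mice, 0 in each Ms4a cluster knockout mouse, and 0, 2.35 and 2 in the Ms4a6c knockout mice, and the 21 Ms4a genes of the table summed to 0 in each Ms4a cluster knockout mouse. Wild-type mouse 1 and Ms4a cluster knockout mouse 2 stood apart: their TMM scaling factors were 0.702 and 0.704, against 1.07 to 1.13 in the other 7. The Bowman's and nasal gland list held 6 genes, all detected. In these 2 mice they summed to 124970 and 128140 CPM (counts scaled by TMM to library size), against 9279 to 14955 in the other 7. The excess lay in Obp1a, Obp2a, Bpifb9a and Lcn11. Aqp5 was at 228 and 208 CPM in these 2 mice, against 156 to 200 in the other 7. Bpifa1 did not stand out, at 7836 and 7255 CPM against 7199 to 10787. Olfr genes took 0.465% and 0.405% of all counts in these 2 mice, against 0.695% to 0.781%. The 12 mature sensory neuron markers, among them the olfactory marker protein Omp, were detected in every library, at summed levels of 12883 to 14754 CPM in wild-type, 11715 to 14712 in Ms4a cluster knockout and 14083 to 14686 in Ms4a6c knockout mice. The part of gland RNA in the results below was not tested beyond giving them without these 2 mice.

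Of the 47 receptors, 45 had at least 10 counts summed over the 9 mice (95.7%), against 1064 of the other 1361 Olfr genes (78.2%). The number was 46 with a minimum of 1 count and 45 with a minimum of 30. Both genes under the minimum belong to the subfamily of Olfr97, Olfr99 and Olfr107. Olfr108 had 0 counts in each of the 9 mice, which allows up to 0.123 to 0.299 CPM depending on the library, by a limit of 3 counts that covers counting error only. Olfr98 had 9 counts in all and at most 2.09 in a mouse, and the lowest receptor above the minimum, Olfr114, had 69.

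Levels were compared between genes per kilobase of annotated exon (RPKM), since exon lengths differed severalfold across the cluster, and within a gene in CPM. Over the 45 detected receptors the wild-type mean ran from 0.254 RPKM for Olfr128 to 9.41 RPKM for Olfr124, with a median of 1.36 RPKM. The other 1064 detected Olfr genes had a median of 1.05 RPKM and reached 56.5.

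Olfr124, also named SR1, is a receptor known for responding to many unrelated odorants, and it lies on the plus strand at chr17:37799888-37808617. Its CPM in the wild-type mice was 43.3, 46.8 and 41.8, and its level per length was 9.41 ± 0.54 RPKM (SD, n = 3), the 20th highest of the 1109 detected Olfr genes. Olfr110 followed at 7.91 ± 1.5 RPKM, with values just below those of Olfr124, and Olfr131 at 6.96 ± 1.6 RPKM, with values that overlapped those of Olfr110. A gap followed, since the highest value of the next receptor, Olfr121 at 4.07 ± 0.79 RPKM, lay below the lowest value of Olfr131.

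After Olfr121 came Olfr136 at 3.58, Olfr117 at 3.48, Olfr132 at 3.27, Olfr119 at 2.92, Olfr99 at 2.61 and Olfr96 at 2.59 RPKM in the wild type, each with values that overlapped those of the next, so their order is not resolved. Some receptors with many reads were low per length. Olfr130 had 9.46 ± 1.6 CPM (SD, n = 3) spread over 5.988 kb of exon, which gave 1.58 RPKM, while its near-identical partner Olfr117 stood at 3.48 RPKM. Olfr109 at 8.94 CPM, Olfr95 at 7.77 CPM and Olfr129 at 7.55 CPM came to 1.5, 1.5 and 1.42 RPKM, Olfr107 at 8.19 CPM to 1.95 RPKM and Olfr116 at 6.09 CPM to 1.36 RPKM.

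Levels varied within subfamilies. Olfr111 stood at 0.616 RPKM against 7.91 for its partner Olfr110, a split that depends on how reads were divided between them. Their summed level was 12.2, 16.7 and 17.6 CPM in the wild-type mice, 13.1, 13.5 and 12.2 in the Ms4a cluster knockout mice, and 13.6, 12.2 and 10.8 in the Ms4a6c knockout mice, and these ranges overlapped. The subfamily of Olfr118 to Olfr122 and Olfr129 ran from 0.81 to 4.07 RPKM in the wild type, that of Olfr112 to Olfr116 and Olfr126 to Olfr128 from 0.254 to 1.36, and that of Olfr90 to Olfr93 from 0.707 to 1.67.

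**Figure D2:**
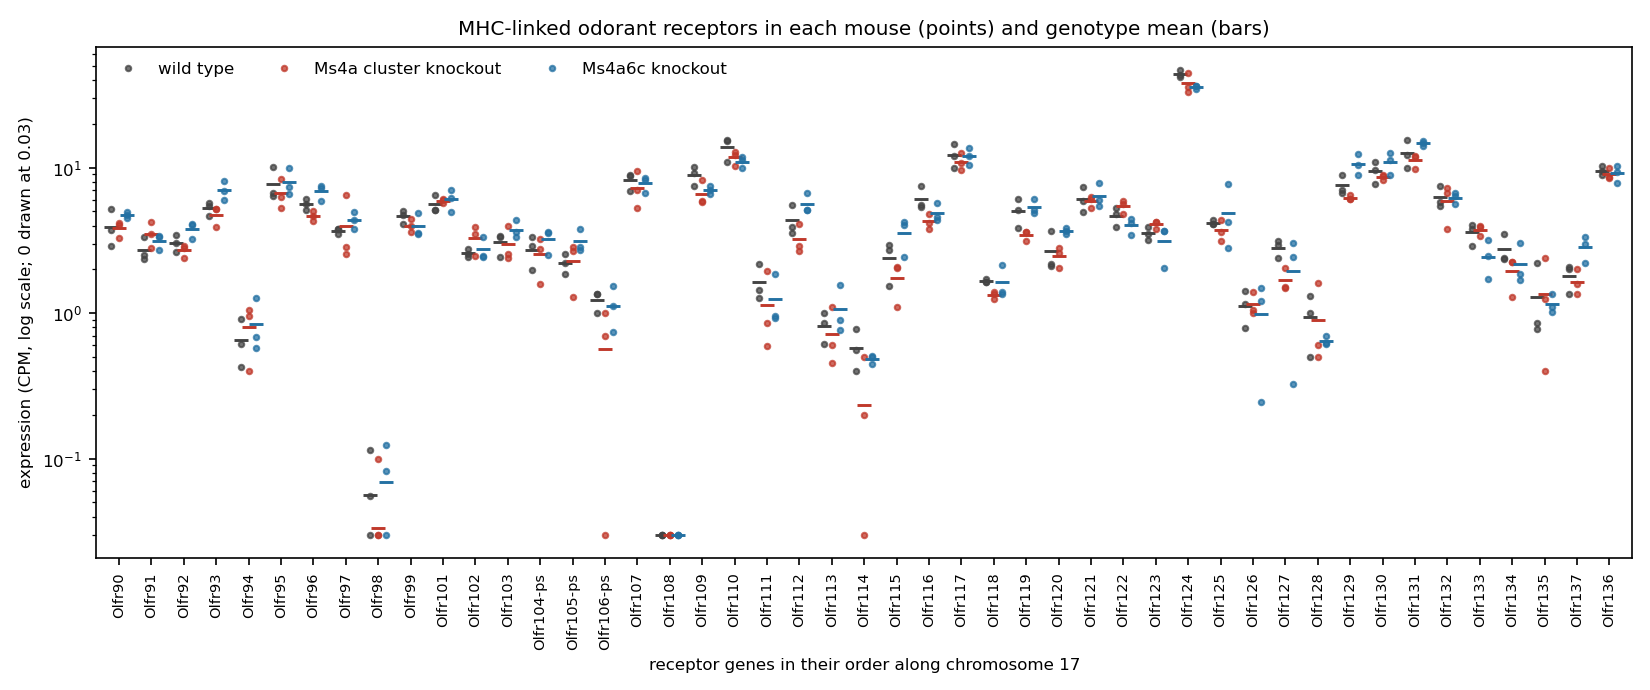
Expression of the 47 receptors in CPM on a log axis, in their order along chromosome 17, with a point for each of the 9 mice, a short bar for each genotype mean and 0 drawn at 0.03. Olfr124 stands above the rest at 33.1 to 46.8 CPM, Olfr98 and Olfr108 lie at the bottom, and the 3 genotypes overlap for most genes.

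The first comparison asked whether receptors of the cluster differ where the Ms4a genes are missing. Against wild type, 0 of the 45 tested receptors of the Ms4a cluster knockout passed an adjusted p of 0.05 in the quasi-likelihood test of edgeR, adjusted by Benjamini-Hochberg over 23225 genes, where 0.0258% of all genes passed. DESeq2 also called 0, where it called 0.0689% of the genes it gave an adjusted p. At an unadjusted p under 0.05 in edgeR there were 3 receptors, or 6.67%, against 4.93% of all tested genes and 9.21% of the other Olfr genes, and DESeq2 likewise had 3, against 2.41% of all genes with a p there. The log2 fold change was below 0 for 35 of the 45, with a median of -0.16, against -0.08 over the other Olfr genes and 0.01 over all tested genes. In 7 receptors (Olfr96, Olfr116, Olfr118, Olfr119, Olfr127, Olfr129 and Olfr134), or 15.6%, the 3 knockout values all lay below the 3 wild-type values, and in 0 they all lay above, against 9.86% of all tested genes with groups apart in either direction. Without the 2 mice that stood apart, edgeR again called 0 of the 45, where 0.0352% of all tested genes passed. An unadjusted p under 0.05 was then found for 6, or 13.3%, against 8.7% of all tested genes and 10.9% of the other Olfr genes.

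Olfr119 and Olfr116, from separate subfamilies, were the receptors with an unadjusted p under 0.05 whose values did not overlap. Olfr119 measured 3.84, 5.16 and 6.09 CPM in the wild-type mice and 3.61, 3.59 and 3.16 in the Ms4a cluster knockout mice. All 3 knockout values were below the lowest wild-type value by a small margin, and the fitted log2 fold change, called log2 ratio from here on, was -0.55 (standard error, SE, 0.19; adjusted p in edgeR = 0.968). Olfr116 measured 5.33, 7.43 and 5.52 CPM in the wild type and 3.81, 4.19 and 4.81 in the knockout. Its groups were also apart, and the log2 ratio was -0.51 (SE 0.19, adjusted p in edgeR = 0.968). Olfr115, whose span overlaps it, was at -0.47 (SE 0.35) with overlapping values. Olfr109, the third gene with an unadjusted p under 0.05, had a log2 ratio of -0.43 (SE 0.17) and overlapping values.

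The values of the most abundant receptor overlapped between these genotypes. Olfr124 measured 44.8, 33.1 and 36 CPM in the Ms4a cluster knockout mice, where mouse 1 lay within the wild-type range, and the log2 ratio was -0.21 (SE 0.10, adjusted p in edgeR = 0.968). Among the receptors next in wild-type CPM, Olfr109 and Olfr116, described above, had log2 ratios of -0.43 and -0.51. Of the others, Olfr110, Olfr131, Olfr117, Olfr136, Olfr130, Olfr107, Olfr95 and Olfr132 had log2 ratios of -0.24 to -0.06 and values that overlapped the wild type. Olfr129, at a similar level, had a log2 ratio of -0.27 (SE 0.16, adjusted p in edgeR = 0.971), with each knockout value below each wild-type value.

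Summed over the 47 genes, the cluster reached 244.0, 251.4 and 240.3 CPM in the wild-type mice and 222.3, 215.9 and 216.7 CPM in the Ms4a cluster knockout mice, so the groups did not overlap. The Ms4a6c knockout mice stood at 246.4, 244.1 and 248.9 CPM, inside the wild-type range. The log2 ratio of the means was -0.17 for the Ms4a cluster knockout and 0.01 for the Ms4a6c knockout. Expressed as a share of all Olfr counts, the cluster took 3.69%, 3.54% and 3.64% in the wild type, 3.32%, 3.75% and 3.42% in the Ms4a cluster knockout and 3.74%, 3.51% and 3.68% in the Ms4a6c knockout, and all of these ranges overlapped. The overlap of the Ms4a cluster knockout came from its mouse 2 alone, 1 of the 2 mice that stood apart. Its mice 1 and 3, at 3.32% and 3.42%, lay below each mouse of the other genotypes. On this share, with the 2 mice that stood apart included, the log2 ratio of the Ms4a cluster knockout to the wild type was -0.050. The other Olfr genes summed to 6366 to 6858 CPM in the wild type, 5542 to 6478 in the Ms4a cluster knockout and 6349 to 6706 in the Ms4a6c knockout. Without the 2 mice that stood apart, the log2 ratio of the summed CPM was -0.16 for the Ms4a cluster knockout.

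**Figure D3:**
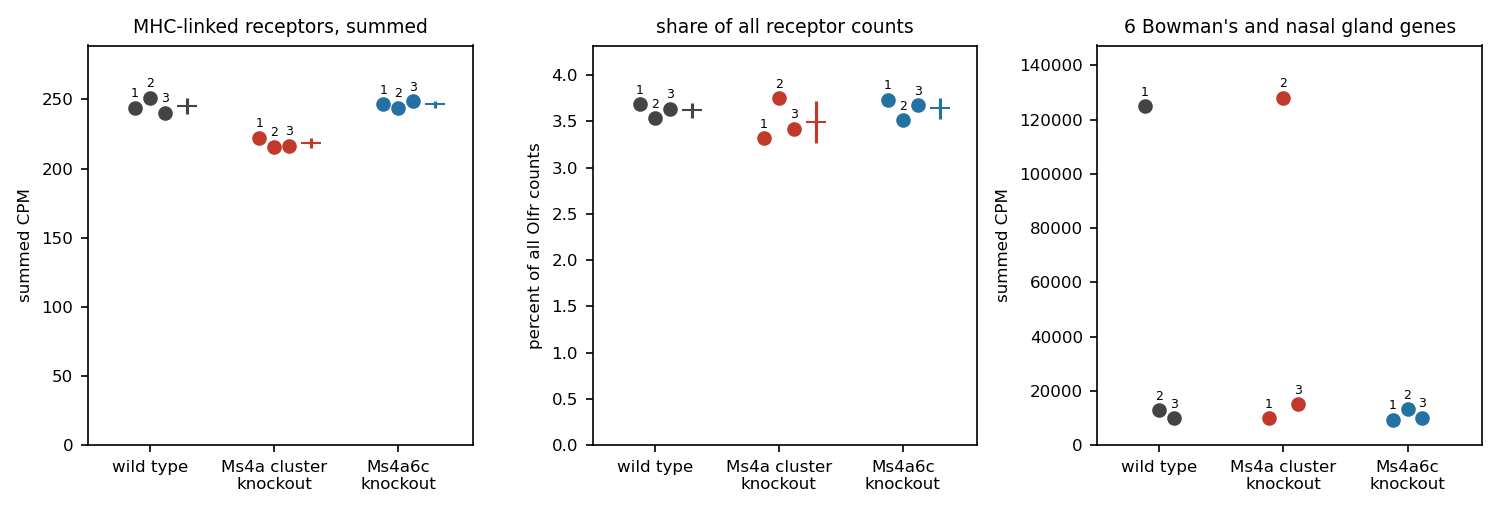
Summed CPM of the 47 receptors, their percent of all Olfr counts, and the summed CPM of 6 gland genes, with a numbered point for each mouse and, in the first 2 panels, the genotype mean with its SD beside the points. The Ms4a cluster knockout mice are lowest in summed CPM, at 215.9 to 222.3. In the share of receptor counts they overlap the other genotypes through mouse 2 alone. Wild-type mouse 1 and Ms4a cluster knockout mouse 2 stand out in the sum of the gland genes.

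The second comparison asked the same of mice that lack Ms4a6c alone. Again 0 of the 45 receptors passed the adjusted threshold in edgeR, where 0.435% of all tested genes passed, and DESeq2 called 0, where 1.7% of all genes passed. Unadjusted p-values under 0.05 were found for 6 receptors, or 13.3%, against 10.5% of all tested genes and 12.3% of the other Olfr genes. In DESeq2 there were 3, against 6.4% of all genes. Fold changes fell on both sides, 24 above and 21 below 0, with a median of 0.08 on the log2 scale, and the median over the other Olfr genes was also 0.08. Values were apart in 7 receptors, 5 higher and 2 lower, or 15.6% against 18.3% of all tested genes. These comparisons share the wild-type mice.

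Olfr124 was lower in each Ms4a6c knockout mouse than in any wild-type mouse, at 36.6, 36.4 and 34.6 CPM against 41.8 to 46.8. The log2 ratio was -0.29 (SE 0.10, edgeR unadjusted p = 0.0173), and the adjusted p was 0.342. Without wild-type mouse 1 and Ms4a cluster knockout mouse 2, edgeR called 0 of the 45 in this comparison too, where 1.54% of all tested genes passed. At an unadjusted p under 0.05 there were then 10, or 22.2%, where all tested genes gave 15.7% and the other Olfr genes 17.3%.

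Olfr129, Olfr93 and Olfr137 were higher in each Ms4a6c knockout mouse than in any wild-type mouse. Olfr129, on the minus strand at chr17:38050857-38060079 and grouped by sequence with the Olfr118 to Olfr122 run, measured 8.89, 7.05 and 6.71 CPM in the wild type and 8.9, 10.4 and 12.4 in the knockout. The nearest values were almost equal, and the log2 ratio was 0.49 (SE 0.16, adjusted p in edgeR = 0.292). Olfr93 measured 4.69, 5.44 and 5.75 CPM in the wild type and 8.12, 6.02 and 6.94 in the knockout, which is a log2 ratio of 0.41 (SE 0.17, adjusted p in edgeR = 0.448).

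Near the other end of the cluster, Olfr137 measured 2.06, 2 and 1.37 CPM in the wild type and 3.36, 2.98 and 2.23 in the Ms4a6c knockout, which is a log2 ratio of 0.67 (SE 0.26, adjusted p in edgeR = 0.398). Olfr110 and Olfr133 had unadjusted p-values under 0.05 with overlapping values, at log2 fold changes of -0.34 and -0.55. After adjustment none of these 6 receptors passed in edgeR.

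Set directly against each other, the knockouts differed in 0 of the 45 receptors by the adjusted edgeR test, where 0.443% of all tested genes passed. DESeq2 called 1, Olfr129, where 271 of 21789 genes passed, or 1.24%. At an unadjusted p under 0.05 there were 12 receptors in edgeR, or 26.7%, of which 10 were lower in the Ms4a cluster knockout, and 9 in DESeq2, which gave 5.69% of all genes. Over all tested genes in edgeR the share was 9.38%, and over the other Olfr genes it was 16.3%. The log2 fold change was below 0 for 34 of the 45 receptors with a median of -0.19, against -0.17 over the other Olfr genes, and values were apart in 14 receptors, 3 higher and 11 lower, or 31.1% against 16% of all tested genes. Without the 2 mice that stood apart, the count at an unadjusted p under 0.05 was 15, or 33.3%, against 10.6% of all tested genes and 17.1% of the other Olfr genes. The count of calls in edgeR stayed at 0, where 0.647% of all tested genes passed.

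Olfr129 showed the smallest p-value. It stood at 6.06, 6.08 and 6.52 CPM in the Ms4a cluster knockout mice, below each of the 8.9, 10.4 and 12.4 CPM in the Ms4a6c knockout mice, with the wild type between. The log2 ratio was -0.76 (SE 0.16), with an adjusted p of 0.104 in edgeR and 0.0147 in DESeq2. Over 16 alternative analyses the log2 fold change ran from -0.88 to -0.63 and the adjusted p from 0.0147 to 0.384, past the threshold in DESeq2 alone.

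Its relatives had values in both directions between the knockouts. Olfr119 had a log2 ratio of -0.63 (SE 0.19, adjusted p in edgeR = 0.32) and Olfr120 one of -0.57, while Olfr122 was at 0.43 and Olfr121 at -0.13. Olfr122 measured 5.61, 5.88 and 4.81 CPM in the Ms4a cluster knockout and 4.14, 4.47 and 3.44 in the Ms4a6c knockout, so its groups were apart in the opposite direction to those of Olfr119 and Olfr129. None of these differences passed the adjusted threshold in edgeR.

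Of the Olfr112 subfamily, Olfr112 measured 2.66, 4.09 and 2.91 CPM in the Ms4a cluster knockout and 5.08, 5.09 and 6.69 in the Ms4a6c knockout, which is a log2 ratio of -0.82 (SE 0.23, adjusted p in edgeR = 0.279). Olfr115 was at 1.1, 2.09 and 2.05 against 4.22, 2.42 and 4.01 CPM, which is a log2 ratio of -1.04 (SE 0.34, adjusted p in edgeR = 0.363). Reads are divided between Olfr115 and Olfr116, so their sum is given as well. It was 4.91, 6.28 and 6.87 CPM in the Ms4a cluster knockout, 8.81, 6.82 and 9.75 in the Ms4a6c knockout and 8.03, 10.4 and 7.05 in the wild type. Summed in this way, the 2 knockouts overlapped narrowly.

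At the centromere-proximal end of the cluster, Olfr92, Olfr93 and Olfr96 had log2 fold changes of -0.48, -0.57 and -0.56 between the knockouts, each with groups apart. Olfr96 measured 4.66, 4.29 and 5.01 CPM in the Ms4a cluster knockout and 7.5, 5.89 and 7.26 in the Ms4a6c knockout. At the other end Olfr131, the third most abundant receptor, was at 9.87, 12 and 11.9 against 15.2, 14.1 and 14.8 CPM, a log2 fold change of -0.39. Beside Olfr122, Olfr133 was the only one of the 12 above 0, at 0.62, and Olfr137 was at -0.79. Their adjusted p-values in edgeR ran from 0.245 to 0.46.

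**Figure D4:**
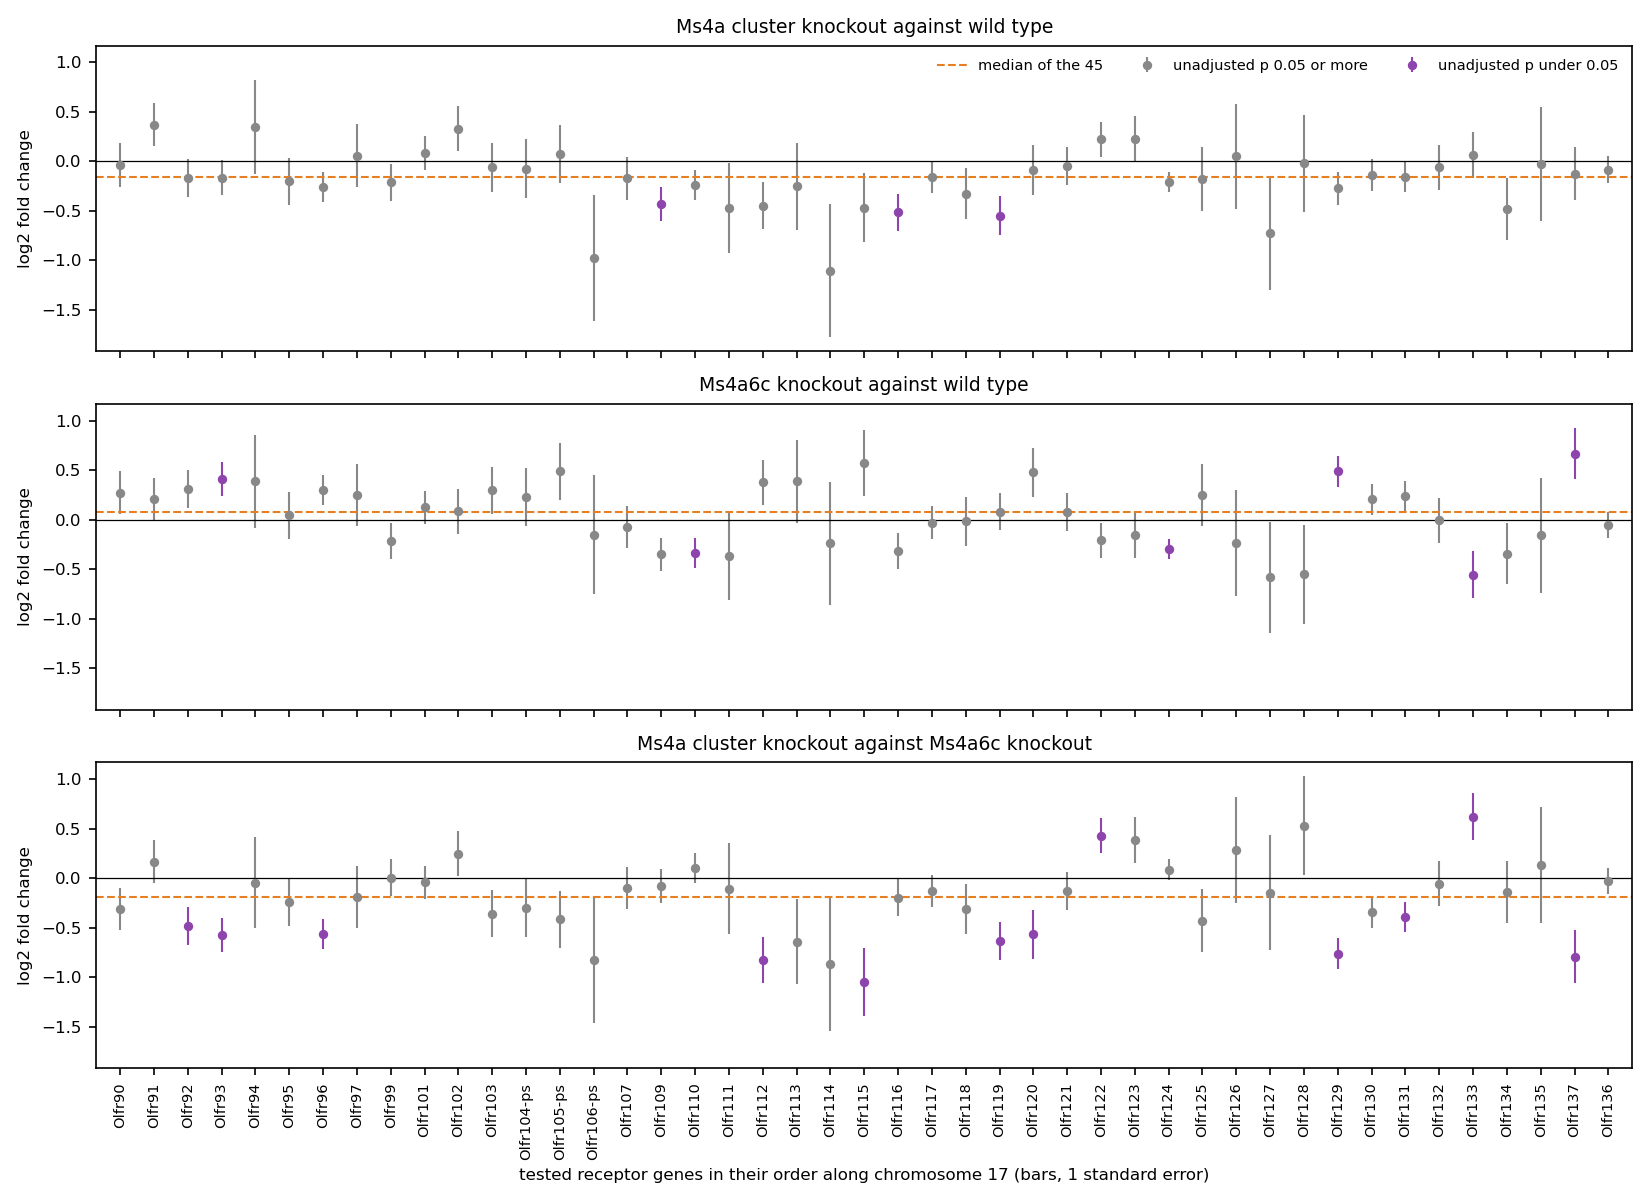
Log2 fold change of the 45 tested receptors with 1 standard error in each of the 3 comparisons, genes in their order along chromosome 17, an unadjusted p under 0.05 in purple and the median of the 45 as a dashed line. The medians are -0.16, 0.08 and -0.19 from top to bottom, and no receptor passes the adjusted threshold in edgeR.

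A single mouse stood apart at neighbouring genes, which were picked out after their values were seen. Olfr126 was at 0.246 CPM in Ms4a6c knockout mouse 1, from 6 expected counts, and at 0.796 to 1.49 CPM in the other 8 mice. Olfr127 was at 0.328 CPM in that mouse, from 7.58 expected counts, and at 1.5 to 3.13 CPM in the others. Olfr125, the gene just before them, was at 7.71 CPM in the same mouse, from 188 counts, and at 2.79 to 4.39 CPM in the other 8.

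Thus this mouse was the lowest of the 9 for Olfr126 and Olfr127 and the highest for Olfr125. Olfr128, the third close relative, was at 0.615 CPM there, within the 0.498 to 1.6 CPM of the others. The coding sequence of Olfr125 is 66.5% identical to that of Olfr126 and is not part of its subfamily. Summed over the close relatives Olfr126 to Olfr128, the mouse stood at 1.19 CPM, against 2.99 to 5.1 CPM in the other 8. With Olfr125 added, a gene picked after its value was seen, the sum was 8.9 CPM, against 6.77 to 9.38 CPM in the other 8.

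With that mouse included, the log2 fold changes of the Ms4a6c knockout against wild type were 0.25, -0.24 and -0.58 for Olfr125, Olfr126 and Olfr127. Without it they were -0.26, 0.27 and -0.04, so the sign turned for Olfr125 and Olfr126, and none of these values passed the adjusted threshold in edgeR. Among 360 values of the 40 receptors with a mean of at least 1 CPM, 5 (1.39%) lay more than 1 log2 unit from the median of the other 8 mice, counted on CPM plus 0.25, against 2.81% of the values of 866 other Olfr genes. Of those 219 values of other Olfr genes, 97 came from Ms4a cluster knockout mouse 2, 1 of the 2 mice that stood apart. Wild-type mouse 1, the other of these 2, gave 23, and the remaining mice gave 3 to 28 each. Over the 8 mice other than Ms4a cluster knockout mouse 2, the shares were 1.25% and 1.76%.

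**Figure D5:**
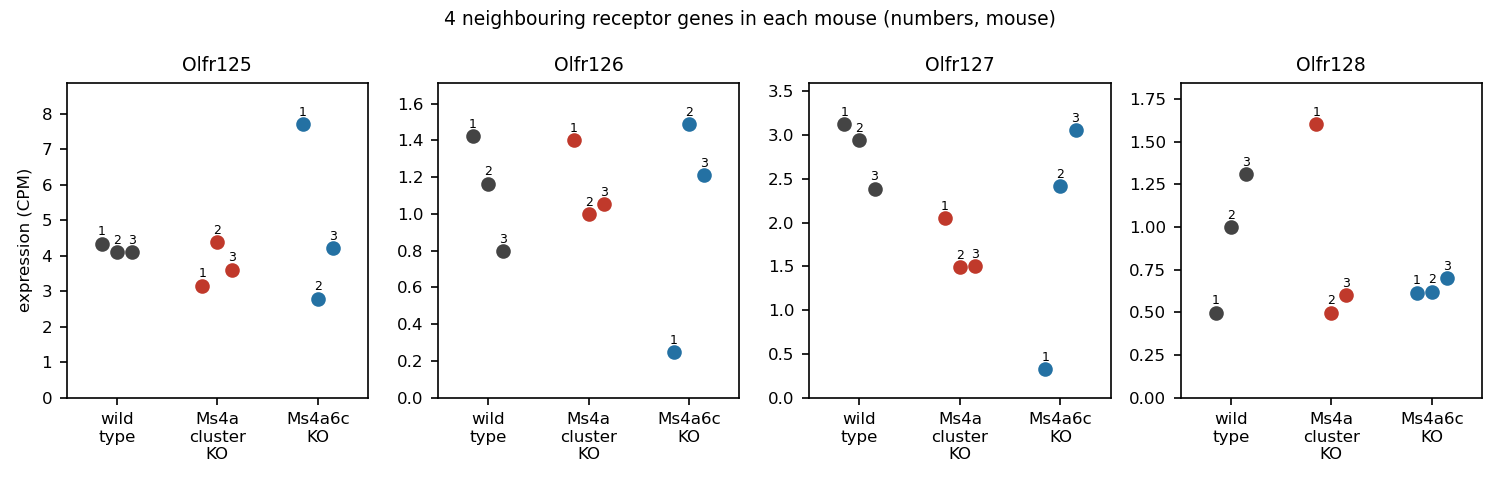
CPM of Olfr125, Olfr126, Olfr127 and Olfr128, which stand in this order along the chromosome, in each of the 9 mice, with points numbered by mouse. Ms4a6c knockout mouse 1 is highest for Olfr125 at 7.71 CPM and lowest for Olfr126 and Olfr127 at 0.246 and 0.328 CPM.

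The surroundings of the cluster gave no called gene either. Of the 133 non-receptor genes within 1 Mb of the outermost receptors, 23 were tested and 0 passed the adjusted edgeR test in any comparison. In the order of the comparisons above, 1, 3 and 1 had an unadjusted p under 0.05 in edgeR. These are 4.35%, 13% and 4.35%, against 4.93%, 10.5% and 9.38% of all tested genes. Inside the cluster the tested genes were the non-classical class I genes H2-M2 and H2-M3 and the ubiquitin-like gene Ubd. Of the 1070 tested chromosome 17 genes other than these receptors, 6 passed in the Ms4a6c knockout against wild type, where 0.435% of all tested genes passed. The first of the 6 starts at 24414565 and the last at 29490753, ahead of the first receptor at 37083871.

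The list of genes that serve receptor choice and receptor traffic held 17 genes, among them the transcription factor Lhx2 and its cofactor Ldb1, which act at receptor enhancers, and Rtp1 and Rtp2, which carry receptors to the membrane. Of the 17, 0 passed the adjusted edgeR test in any of the 3 comparisons, and 0, 0 and 1 had an unadjusted p under 0.05, the last being Rtp2. Of the zonal markers, 0 of 2 dorsal genes (Nqo1 and Acsm4) and 0 of 3 ventral genes (Ncam2, Cldn9 and Pcp4l1) passed. The 2 dorsal genes summed to 299 CPM in Ms4a cluster knockout mouse 2, against 466 to 645 in the other mice. Of the 12 mature neuron markers the G protein subunit Gng13 alone passed, in both comparisons that involve the Ms4a6c knockout. In that knockout it was lower than in the wild type, at a log2 ratio of -0.89 (SE 0.09, adjusted p in edgeR = 0.00121). Gng13 starts at position 25717171 of chromosome 17 and is among the called genes of that chromosome counted above. Of the basal, immature neuron, sustentacular, gland, ciliated, ensheathing glia, vomeronasal and leukocyte lists, 0 genes passed in any comparison. The 5 sustentacular genes summed to 7662 to 8578 CPM in the wild type, 7501 to 8671 in the Ms4a cluster knockout and 9554 to 10290 in the Ms4a6c knockout. Of these 5, 4 had log2 fold changes above 0 in the Ms4a6c knockout against wild type. The other, Ermn, was at -0.41 (SE 0.10, adjusted p in edgeR = 0.1645), with each knockout value below each wild-type value. The part of these lists in the receptor values was not tested.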

How the data were processed

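The authors made directional poly-A libraries, sequenced them as paired reads, aligned them with STAR 2.6.1 and quantified them with RSEM 1.3.1 on GENCODE M25 (build mm10, the same as GRCm38). They deposited the expected counts of 55291 genes in 9 mice, not normalized, and used DESeq2 1.30.1 for their own comparison. Poly-A selection and read assignment between near-identical receptors affect the levels given here.

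Expected counts were rounded. The filter kept 23225 genes whose counts summed to 10 or more across all mice. After TMM scaling, one edgeR model (version 4.0.16, R 4.3.3) was fitted to the 3 genotypes, and contrasts were tested by quasi-likelihood with Benjamini-Hochberg adjustment. DESeq2 1.42.0 was an alternative. The SE of a log2 ratio was obtained by dividing it by the root of its F statistic. RPKM is the TMM-scaled CPM divided by the kilobases of merged exons. The procedure was tested on simulated counts. Coordinates, exon lengths and coding sequences came from GENCODE M21 on the same build, to which 99.58% of the genes and all 47 receptors were matched; identity is the share of matching columns in a global alignment. Totals per mouse were 13954591 to 21987174, and reads carry no molecular identifiers. Labels gave genotype and a replicate number, which is called the mouse number here. The wild-type mice are littermate controls, but which mice shared a litter is not given. The p-values set each difference against the spread between these mice.

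The members, gene lists and tests were chosen with earlier results of these data known. Named receptors were the 12 with the highest wild-type CPM, those with an adjusted p under 0.05, those with an unadjusted p under 0.05 and non-overlapping values, near-identical pairs, and those under the count minimum; Olfr125, Olfr109, Olfr110, Olfr121 and Olfr133 in some sentences were named after their values were seen. Alternatives were DESeq2's size factors, summed Olfr counts as library size, other filters, the compared genotypes alone, the mouse number as a block, each mouse left out, Xist or Omp as a covariate, DESeq2 and an adjusted p under 0.01. Leaving out both libraries that stood apart was chosen after the data were seen.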

Additional observations from a re-analysis of the deposited data

How the results depend on the processing

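The number of receptors called was 0 under each of the 17 alternatives in both comparisons with wild type, and under 16 of 17 between the knockouts. The exception was DESeq2, which called 1, Olfr129. The stricter threshold, an adjusted p under 0.01, is counted among the 17 and could not have raised the number. With the mouse number as a replicate block the calls were also 0, 0 and 0, and the number called over all genes went from 6 to 2, from 101 to 71 and from 103 to 75. Same-numbered mice of different genotypes had deviations from their group means that correlated at -0.58 to 0.115. For mice with different numbers the range was -0.365 to 0.56, with 0.52 between the libraries that stood apart. Correlations were thus not higher for shared numbers. With so few mice a group, and with those libraries included, they cannot show whether a number marks a shared litter or batch, which was not tested.

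The log2 ratio of the summed receptors was -0.050 for the Ms4a cluster knockout as a share of all Olfr counts (-0.17 as scaled CPM), and 0.19 for the Ms4a6c knockout with the plain library size (0.01 as scaled CPM). Leaving out single mice gave -0.18 to -0.15 and -0.01 to 0.03. Of the 18 fold changes followed, none reversed in any alternative. These 18 were chosen for an unadjusted p under 0.05 in edgeR and groups apart in the same data. A reversal was therefore unlikely from the outset. Scaling to summed Olfr counts raised the median of all genes by 0.12 in both comparisons that involve the Ms4a cluster knockout, and the receptors' medians there were -0.042 and -0.049.

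The smallest difference detectable with 3 mice a group at this depth was not measured, and a count of 0 calls does not show that levels were equal.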
